A study of Mus musculus with 11 samples.

Results

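Integrins, laminins and their basement membrane partners were followed as 1 group of 38 genes among the 24427 genes measured in sorted mouse kidney cells. The genes were chosen by name: every laminin alpha, beta and gamma chain with a numbered symbol, every numbered integrin alpha and beta subunit, both nidogens, nephronectin (Npnt), and Fras1, Frem1, Frem2 and Grip1. That gave 5 laminin alpha, 3 beta and 3 gamma chains, 2 nidogens, 1 nephronectin, 4 genes of the Fraser complex and its adaptor, 12 integrin alpha and 8 integrin beta subunits. All 38 symbols were found in the tables. The naming rule itself uses no measured value, but it was written with earlier results of these data known. Integrin subunits named by letters, such as Itgav, fall outside the rule and were counted in a separate list.

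Messenger RNA was sequenced from 11 libraries, each of cells sorted out of the developing kidney of the outbred mouse strain CFW. Cells that were Six2+ (n = 3) and cells that were Six2- (n = 3) came from E16.5 embryos of genotype Six2TGC/+, which carry a transgene that places a fusion of green fluorescent protein and Cre under Six2 control. Cited1+ cells (n = 3) came from E16.5 embryos of genotype Cited1tagRFP/+, and pups of genotype Six2TGC/+ gave more Six2+ cells (n = 2) at postnatal day 2 (P2). Six2 is the transcription factor that maintains the nephron progenitors around each ureteric tip, and Cited1 is restricted to the most naive of these cells. Each sort therefore follows a reporter of 1 gene, and the Six2- group is a mixture of all other kidney cells. Nothing in the labels tells whether the replicates are separate animals or pools of kidneys, and p-values therefore cover the variation among the libraries at hand, which may be technical only.

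A basement membrane is a sheet of extracellular matrix built on laminins, each a trimer of an alpha, a beta and a gamma chain, which nidogens link to type IV collagen. Cells hold on to it through integrins, pairs of an alpha and a beta subunit, many of them built on the beta subunit Itgb1. In the kidney, Itga8 with Itgb1 on the progenitors binds nephronectin from the neighbouring ureteric bud, and mice that lack either gene often form no kidney. Fras1, Frem1 and Frem2 form a complex anchored in the basement membrane under embryonic epithelia, and Grip1 carries Fras1 and Frem2 to the cell surface.

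The values are RPKM, reads scaled by transcript length and by library depth, and are comparable between genes per unit of length. They came in separate tables, one for the Six2+ and Six2- cells and one for the Cited1+ and P2 Six2+ cells, so tests were made within each table and levels across tables are set side by side only. Differences are on the scale of log2(RPKM + 1), which understates the change of low genes, and a gene was called at a limma p-value below 0.05 after Benjamini-Hochberg adjustment over all genes tested. Summed values ran from 321883 to 433447 per library, and the steps of low values imply 16500000 to 43950000 reads. Six2 itself was at 315 to 354 RPKM in the Six2+ libraries. It was at 2.72 and 2.90 in Six2- replicates 1 and 2 but at 17.0 in Six2- replicate 3, which also held more Cited1 (5.01 against 0.516 and 0.881). The highest sum belonged to Six2+ replicate 2. In bulk RNA from sorted cells, fewer cells of a type and less RNA per cell cannot be told apart.

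Of the 38 genes, 31 reached a mean of 1 RPKM in at least 1 group, 21 did so in every group, and 9 reached 50 RPKM in at least 1 group. Together they held 0.0858% to 0.347% of all RPKM in a library. Ranked by group mean, Six2+ cells at E16.5 were the highest group for 0 of the 38 genes and the lowest for 19. Six2- cells were the highest for 19 and the lowest for 6. Cited1+ cells were the highest for 7 and the lowest for 3, and P2 Six2+ cells were the highest for 12 and the lowest for 10. This order spans both tables, was not tested and was not taken over all genes. It includes the 7 genes that averaged below 1 RPKM in every group.

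**Figure D1:**
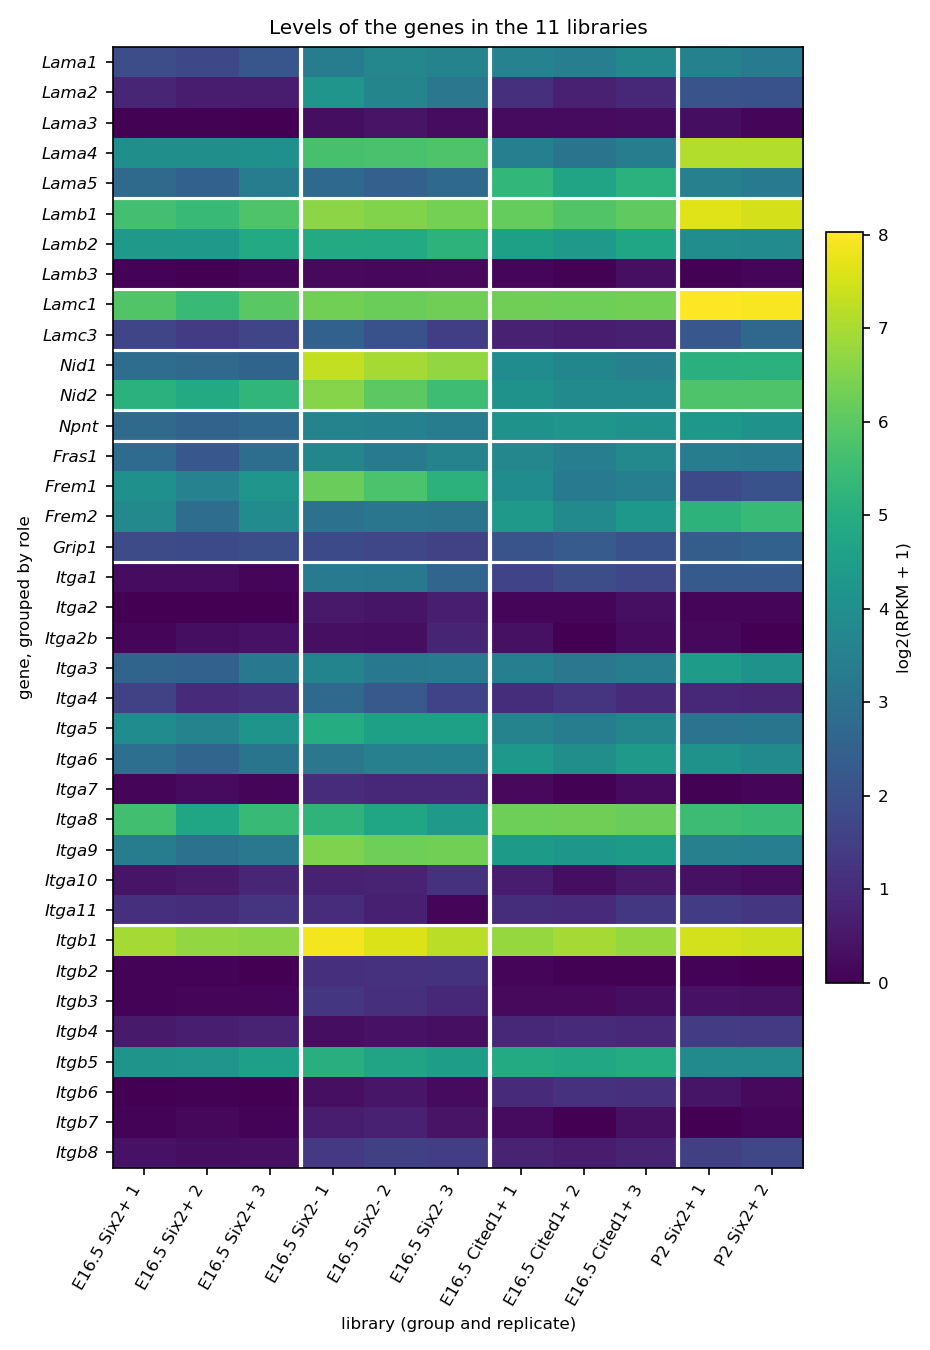
Level of the genes reported here, as log2(RPKM + 1) by colour, in each of the 11 libraries, with rows grouped by role and white lines between groups. Itgb1, Lamb1 and Lamc1 are bright in every library, while Nid1, Itga9 and Lama2 are bright mainly in Six2- libraries and Lama4 in P2 Six2+ libraries.

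Promoter windows are shown for 4 genes whose levels the comparisons below turn on: Itga8, the receptor subunit of the progenitors, Nid1, with the widest difference between Six2+ and Six2- cells, Lamb1, a chain shared by many laminins, and Lama5, which was higher in Cited1+ than in P2 Six2+ cells. Each window runs from 250 bases before to 50 bases after a listed start site in GRCm38.p6, and 25 of the 38 genes had an entry. That start site can lie inside the gene, as for Lamb1, which begins at 31265146 on chromosome 12 in RefSeq's annotation. The Itga8 window lies on the minus strand at chr2:12301895-12302194, and spans the start of the gene, which runs from 12106632 to 12301985 on chromosome 2. The Nid1 window lies on the plus strand at chr13:13437352-13437651, the Lamb1 window on the plus strand at chr12:31265043-31265342, and the Lama5 window on the minus strand at chr2:180225810-180226109. Capitals mark the GC box, GGGCGG or its reverse complement CCGCCC.
Itga8: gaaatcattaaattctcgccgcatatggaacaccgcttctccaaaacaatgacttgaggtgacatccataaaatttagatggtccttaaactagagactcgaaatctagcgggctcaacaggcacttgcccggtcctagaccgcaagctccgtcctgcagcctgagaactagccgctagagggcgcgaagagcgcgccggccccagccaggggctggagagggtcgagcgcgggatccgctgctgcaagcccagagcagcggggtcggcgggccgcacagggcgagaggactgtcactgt
Nid1: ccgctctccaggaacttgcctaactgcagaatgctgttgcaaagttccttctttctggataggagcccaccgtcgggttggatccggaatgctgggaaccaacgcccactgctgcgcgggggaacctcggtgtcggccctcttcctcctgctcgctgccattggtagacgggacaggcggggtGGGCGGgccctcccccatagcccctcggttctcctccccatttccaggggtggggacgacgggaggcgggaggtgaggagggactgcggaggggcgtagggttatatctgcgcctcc
Lamb1: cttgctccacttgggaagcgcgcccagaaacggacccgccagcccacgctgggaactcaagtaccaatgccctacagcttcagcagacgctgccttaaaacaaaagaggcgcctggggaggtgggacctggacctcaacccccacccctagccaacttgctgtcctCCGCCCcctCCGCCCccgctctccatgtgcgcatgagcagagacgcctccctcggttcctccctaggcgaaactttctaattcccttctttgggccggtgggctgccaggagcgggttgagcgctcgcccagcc
Lama5: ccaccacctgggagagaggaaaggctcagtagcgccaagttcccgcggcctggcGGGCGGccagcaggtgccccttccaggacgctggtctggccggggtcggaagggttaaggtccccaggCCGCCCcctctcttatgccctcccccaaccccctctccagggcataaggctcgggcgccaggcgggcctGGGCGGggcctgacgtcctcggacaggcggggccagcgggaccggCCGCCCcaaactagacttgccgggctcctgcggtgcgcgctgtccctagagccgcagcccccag
The GC box occurs 1 time in the Nid1 window, 2 times in Lamb1 and 4 times in Lama5. Each motif was searched on both strands, and no match in these windows overlaps another. At least 1 GC box was present for 12 of the 25 genes with a window (48.0%), against 35.7% of all 32851 promoter windows. A gene was counted if any of its windows held a match, while the share over all windows counts each window. For all 3 motifs these are therefore unlike measures. The TATA box, TATAAA, was present for 1 of the 25 genes and in 13.6% of all windows. The core of the TCF/LEF motif, CTTTGA, was present for 6 of the 25 genes and in 16% of all windows. None of these matches is evidence of binding. The Itga8 window holds no match to the 3 motifs, and its GC content is 59.0%, against a median of 52.7% over all windows.

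The first comparison asks how Six2+ nephron progenitors differ from all other kidney cells of the same stage. Of the 38 genes, 25 passed the filter of a mean of 1 RPKM. In Six2+ cells 17 were lower than in Six2- cells, where the background was 18.1% of 11882 genes tested, and 0 were higher, where the background was 20.5%. Blocked on replicate number, which was taken to pair these libraries, 20 were lower (background 22.2%) and 1, Itga8, was higher (background 30.3%). The labels do not state a pairing, and values given without mention of the block come from the fit without it. At an unadjusted p below 0.05 without the block, 19 were lower and 0 higher, with no share over all genes taken at that threshold. Limma was the single tool run. A drop of at least 1 on the log2 scale was found for 8 of them, where the background was 10.3%, and a rise of that size for 0, where the background was 5.07%. Of those 8, Lama2 and Itga1 averaged under 1 RPKM in Six2+ cells and passed the filter through the Six2- libraries alone, so the filter fixed their direction. The median difference over the 25 genes was -0.79, against 0.12 over all genes tested. Called genes of the whole table split 53.2% higher, or 42.3% higher with every library scaled to the same total. Under that scaling 15 of these genes were lower (background 17.7%) and 0 higher (background 13.0%). Without Six2- replicate 3, which held more Six2, 16 were lower (background 18.7%) and 0 higher (background 20.1%). Without Six2+ replicate 2, 15 were lower (background 16.9%) and 2 higher (background 17.9%).

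**Figure D2:**
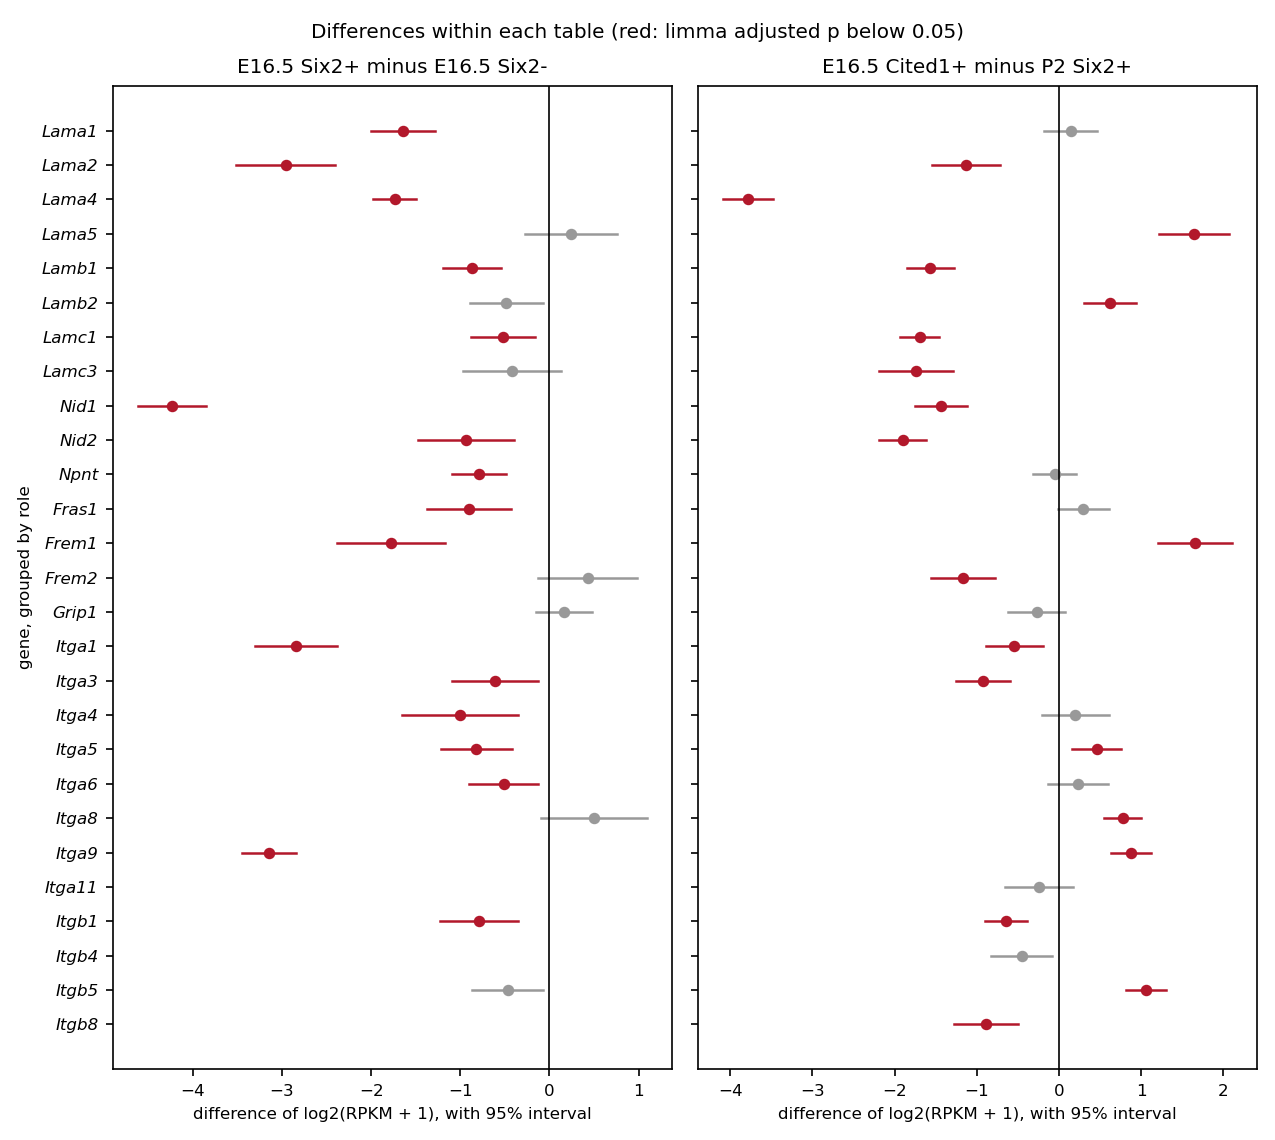
Difference of log2(RPKM + 1) with its 95% interval from limma for each tested gene reported here, Six2+ minus Six2- cells at E16.5 on the left and Cited1+ at E16.5 minus P2 Six2+ cells on the right. Red points passed an adjusted p below 0.05. On the left every red point lies below 0, down to Nid1 at -4.23, and on the right red points lie on both sides, from Lama4 at -3.78 to Frem1 at 1.65.

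Markers of other cells moved with this comparison. All 8 stromal markers, all 6 of mural cells (the cells that wrap vessels) and all 10 endothelial markers were lower in Six2+ cells, as were 8 of 9 leukocyte, 5 of 6 podocyte and 5 of 7 ureteric markers tested. The background was 18.1% of all genes tested. Among these markers, at least Pdgfra, Rgs5, Myh11, Ren1, Lyz2, Csf1r and all endothelial ones but Plvap and Cldn5 averaged under 1 RPKM in Six2+ cells. They passed the filter through the Six2- libraries alone, so the filter fixed their direction. Summed stromal markers were at 90.3 to 113 RPKM in Six2+ libraries and at 2169 to 3231 in Six2- libraries. Mural markers summed to 8.15 to 12.3 against 196 to 282 RPKM, and endothelial markers to 6.79 to 13.0 against 55.4 to 109. Leukocyte markers summed to 2.82 to 14.0 against 85.5 to 123 RPKM, podocyte markers to 6.43 to 8.82 against 23.5 to 101, and ureteric markers to 26.1 to 29.5 against 36.8 to 60.5. No listed marker of these types was at 0 in Six2- libraries, while up to 3 of a list, such as Pecam1, Kdr, Csf1r, Nphs1 or Ren1, were at 0 in single Six2+ libraries. All 4 proximal tubule markers tested were lower as well, and the 6 listed summed to 1.71 to 1.88 against 10.9 to 15.7 RPKM. With so small a sum, most of the 4 averaged under 1 RPKM in Six2+ cells. For those the filter fixed the direction. The part of all these markers in the differences of the 38 genes was not tested.

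Among the laminin alpha chains, which give each laminin its binding properties, 3 of 4 tested fell in Six2+ cells (background 18.1%). Lama4, a chain of vessel and mesenchymal basement membranes, was at 14.8, 15 and 15.3 RPKM in Six2+ cells and at 50.4, 51.7 and 55.7 in Six2- cells. The groups lay far apart with little spread inside either, and the difference was -1.74 ± 0.11 (SE; limma, adjusted p = 4.18e-06). Lama4 lies on chromosome 10 at 38965515 to 39110188 in GRCm38. Lama2, the chain of muscle and mesenchymal laminins, was at 0.828, 0.525 and 0.574 RPKM in Six2+ cells against 17.3, 11.6 and 8.0 in Six2- cells. It was near absent in every Six2+ library, with a difference of -2.96 ± 0.24 (SE; limma, adjusted p = 2.04e-05). Lama2 passed the filter through the Six2- libraries alone, so the filter fixed its direction. Lama1, the main chain of early embryonic laminin, was at 2.76, 2.31 and 3.40 RPKM against 9.53, 12.2 and 11. Its groups did not overlap either, and the difference was -1.64 ± 0.16 (SE; limma, adjusted p = 5.15e-05).

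Lama5, the chain of mature tubule and glomerular laminin, did not pass the test. It was at 5.86, 4.63 and 9.61 RPKM in Six2+ cells and at 5.67, 4.49 and 5.72 in Six2- cells, so that the groups overlapped. The difference of 0.24 had a 95% interval from -0.27 to 0.76 and fell to -0.01 without Six2+ replicate 3. The fifth alpha chain, Lama3, a chain of skin laminin, stayed below 0.4 RPKM in every library and was not tested.

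The chains shared by many laminins differed by less than 1 on the log2 scale. Lamb1, the beta chain of most embryonic laminins, was at 48.7, 41.9 and 55.2 RPKM in Six2+ cells and at 97.8, 89.8 and 80.3 in Six2- cells. All 3 Six2+ libraries were below all Six2- libraries, by -0.87 ± 0.14 (SE; limma, adjusted p = 0.00141). Lamc1, the gamma chain of nearly all laminins, was at 56.6, 42.1 and 61.8 RPKM against 78.9, 73.0 and 76.8. The groups did not overlap, but the fall of 0.52 on the log2 scale (limma, adjusted p = 0.0278) missed the threshold when Six2+ replicate 1 or any 1 of the Six2- libraries was left out, with adjusted p-values of 0.0522 to 0.0824. With every library scaled to the same total it also missed, at an adjusted p of 0.0534.

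Lamb2, the beta chain of glomerular and synaptic laminins, averaged 22.3 ± 5.79 RPKM (SD, n = 3) in Six2+ and 31.1 ± 3.92 in Six2- cells. Its difference of -0.48 missed the threshold (limma, adjusted p = 0.0644) but passed in a fit blocked on replicate number (adjusted p = 0.00539). Lamc3, a less common gamma chain, was at 2.23, 1.64 and 2.19 RPKM against 4.66, 3.04 and 1.84 in Six2- cells. Its groups overlapped and the difference of -0.42 was not called (limma, adjusted p = 0.203), though without Six2- replicate 3 it was -0.67 and was called (adjusted p = 0.0225). Lamb3, a beta chain of skin laminin, stayed below 0.3 RPKM in every library.

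The widest difference of the 25 genes tested here was that of Nid1, which links laminin to type IV collagen. Nid1 was at 6.36, 5.88 and 5.02 RPKM in Six2+ cells and at 157, 121 and 104 in Six2- cells. Every Six2- library was above every Six2+ library many times over, and the difference was -4.23 ± 0.17 (SE; limma, adjusted p = 3.94e-07), an 18.8-fold lower level on the scale with 1 added. Nid2, the second nidogen with the same binding partners, was at 33.6, 28.9 and 37.8 RPKM against 93.1, 63.7 and 45.5. It differed less, by -0.94 ± 0.24 (SE; limma, adjusted p = 0.0133), and its groups did not overlap. The ratio of Nid1 to Nid2 within a library was 0.133 to 0.204 in Six2+ and 1.69 to 2.28 in Six2- cells. Some exonic bases of Nid2 (8.45%) are shared with Rtraf on the other strand, and the sources used here do not give the strand setting of the counting.

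Nephronectin, the ligand of the Itga8 receptor, was low in both groups. Npnt was at 5.86, 4.87 and 5.73 RPKM in Six2+ cells and at 10.97, 10.4 and 9.28 in Six2- cells. The groups did not overlap and differed by -0.79 ± 0.13 (SE; limma, adjusted p = 0.00151). Npnt lies on chromosome 3 at 132881745 to 132950291.

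In the Fraser complex, 2 of 4 genes fell in Six2+ cells (background 18.1%). Frem1, the secreted member, was at 15.3, 10.7 and 17.3 RPKM in Six2+ cells and at 72.9, 52.4 and 34.7 in Six2- cells. The groups were well apart although the Six2- libraries spread widely, and the difference was -1.78 ± 0.27 (SE; limma, adjusted p = 0.000825). Fras1, a membrane-anchored member, averaged 5.29 ± 1.58 RPKM (SD, n = 3) against 10.5 ± 1.5 and fell by 0.90 on the log2 scale (limma, adjusted p = 0.00864). Frem2, the other membrane-anchored member, was at 12.6, 6.35 and 13.8 RPKM against 7.19, 7.81 and 7.42. In Frem2 only Six2+ replicate 2 lay at the level of the Six2- libraries. The difference of 0.43 was not called (adjusted p = 0.197), and without that library it was 0.74 and was called (limma, adjusted p = 0.00413). Grip1 averaged 2.65 ± 0.176 RPKM (SD, n = 3) against 2.27 ± 0.263 and was not called (limma, adjusted p = 0.395).

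Itga8 was the alpha subunit with the highest level in Six2+ cells. It was at 47.2, 26.1 and 41.2 RPKM in Six2+ libraries and at 36.0, 25.1 and 19.4 in Six2- libraries, so that the groups overlapped. The difference of 0.50 had a 95% interval from -0.10 to 1.09 and was not called (limma, adjusted p = 0.164). Blocked on replicate number it passed (adjusted p = 0.0467), and without Six2+ replicate 2 it was 0.74 and also passed (adjusted p = 0.0485). An antisense gene, E030013I19Rik, covers 5.05% of its exonic bases.

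Of the 7 alpha subunits tested, the other 6 fell in Six2+ cells (background 18.1%). Itga9, a receptor subunit for tenascin and related ligands, was at 9.36, 7.13 and 8.23 RPKM in Six2+ and at 88.3, 75.8 and 78.1 in Six2- cells. There was no overlap and little spread, and the difference was -3.15 ± 0.13 (SE; limma, adjusted p = 5.12e-07). Itga1, a collagen receptor subunit, was at 0.202, 0.190 and 0.0901 RPKM against 9.01, 8.45 and 5.08. It was near absent from every Six2+ library and differed by -2.84 ± 0.20 (SE; limma, adjusted p = 9.53e-06). Itga1 passed the filter through the Six2- libraries alone, so the filter fixed its direction. Itga4, which binds fibronectin and Vcam1, was at 1.90, 0.927 and 1.15 RPKM against 5.76, 3.69 and 2.06. Its groups lay close, and the fall of 1.0 on the log2 scale (limma, adjusted p = 0.0223) was lost without Six2- replicate 1 or 2 or Six2+ replicate 2 or 3, at adjusted p-values of 0.0549 to 0.0776.

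Itga5, the fibronectin receptor subunit, averaged 13.9 ± 2.83 RPKM (SD, n = 3) in Six2+ cells and 25.2 ± 4.31 in Six2- cells and fell by 0.82 on the log2 scale (limma, adjusted p = 0.00608). The laminin receptor subunit Itga3 averaged 6.02 ± 2.09 RPKM (SD, n = 3) against 9.55 ± 1.59 and fell by 0.62 (limma, adjusted p = 0.0476). Itga6, the other main laminin receptor subunit, averaged 6.501 ± 1.32 RPKM (SD, n = 3) against 9.65 ± 1.29 and fell by 0.51 (limma, adjusted p = 0.0398). Both calls were lost with every library scaled to the same total (adjusted p = 0.0872 and 0.0685). Itga3 also missed the threshold without any single library but Six2+ replicate 3, and Itga6 without any but Six2+ replicate 3 or Six2- replicate 1.

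Itgb1, the common beta subunit, had the highest level of the 8 beta subunits. It was at 124, 105 and 98.6 RPKM in Six2+ and at 237, 193 and 145 in Six2- cells. The groups did not overlap, and the fall was 0.79 on the log2 scale (limma, adjusted p = 0.0117). Itgb5, which pairs with Itgav, was at 16.9, 17.1 and 22.2 RPKM against 32.8, 24.8 and 21.8. The groups overlapped, and the difference of -0.47 was not called (limma, adjusted p = 0.0645; 0.0495 with the replicate block).

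The 13 genes under the filter in this comparison were Lama3, Lamb3, Itga2, Itga2b, Itga7, Itga10, Itga11, Itgb2, Itgb3, Itgb4, Itgb6, Itgb7 and Itgb8. Several were present in Six2- libraries at 1 to 2 RPKM and near 0 in Six2+ libraries. Itgb2, the beta subunit of leukocyte integrins, was at 1.18 to 1.28 RPKM against 0.0111 to 0.0664. Itgb8, which pairs with Itgav, was at 1.51 to 1.88 RPKM against 0.243 to 0.322, and Itgb3, of platelets and vessel cells, at 0.842 to 1.40 against 0.0657 to 0.0896. Itgb4, the partner of Itga6 in hemidesmosomes, went the other way, at 0.508 to 0.689 RPKM in Six2+ and 0.236 to 0.320 in Six2- cells. With no filter, Itgb4 was the single gene of the 38 called higher in Six2+ cells (0.32, limma, adjusted p = 0.00870), where the background was 13.9%. Beside it, 23 were called lower (background 16.7%).

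**Figure D3:**
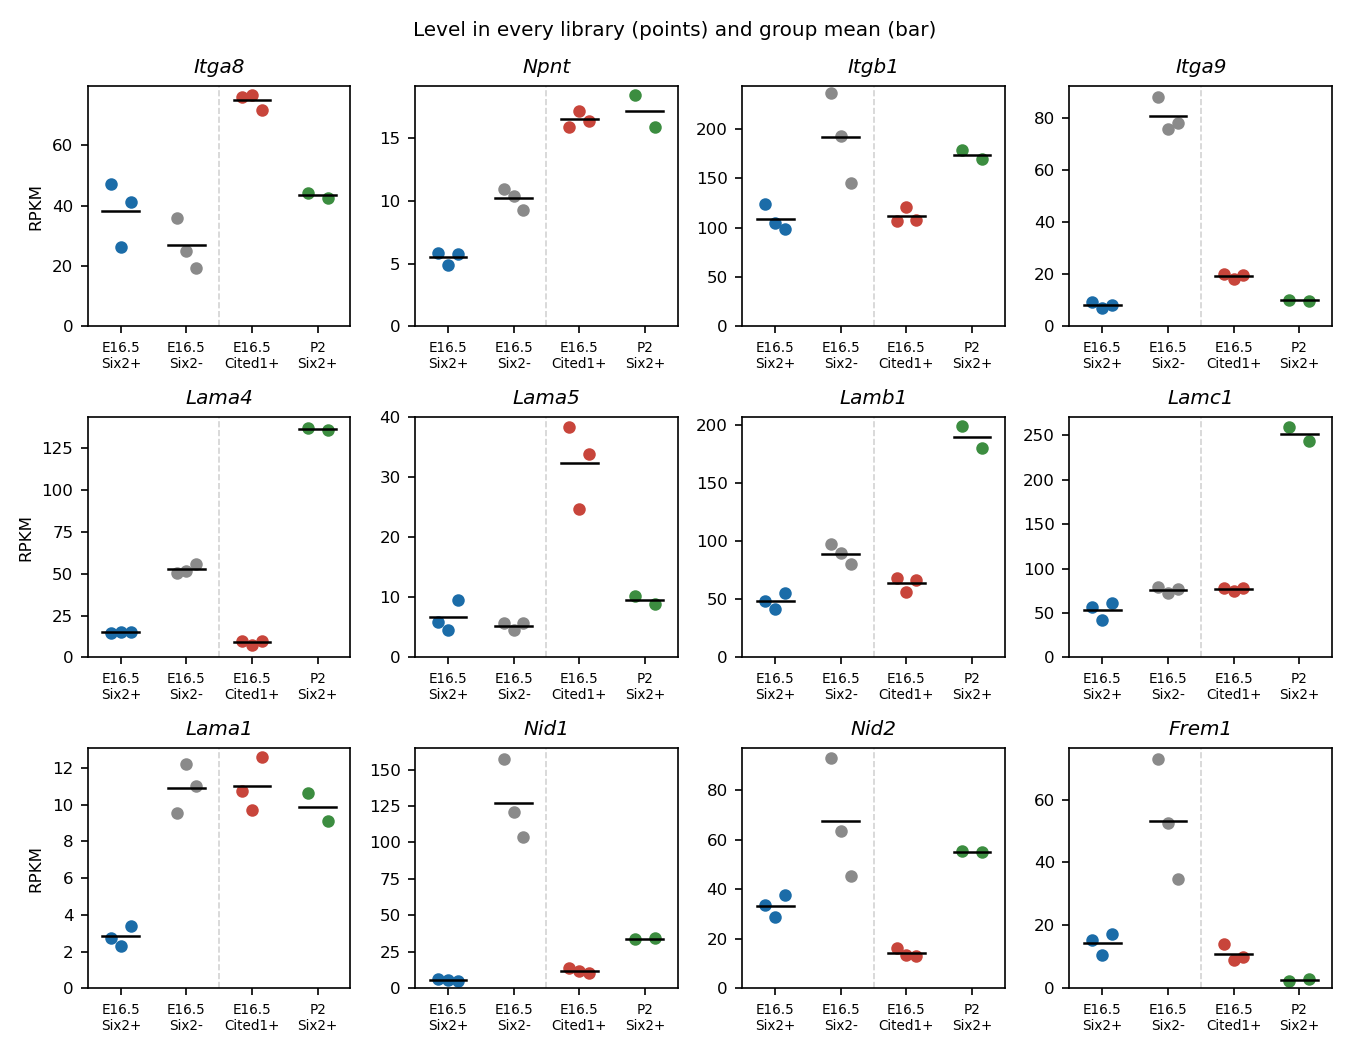
Level in RPKM of 12 genes in every library (points) with the group mean (bar), each panel on its own axis that starts at 0, and a dashed line between the separate tables. Nid1 and Itga9 are high in Six2- libraries only, Lama4, Lamb1 and Lamc1 are highest in P2 Six2+ libraries, and Lama5 and Itga8 are highest in Cited1+ libraries.

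The wider matrix and adhesion genes were read from lists beside the 38. Of 20 other basement membrane genes tested, 11 were lower in Six2+ cells (background 18.1%) and 1, Col18a1, was higher (background 20.5%). The widest falls were those of Smoc2 (-4.52 ± 0.23), Col15a1 (-4.32 ± 0.37) and Egflam (-2.93 ± 0.15; SE, limma, adjusted p of 2.55e-05 or less). Of 13 other integrin ligands, 11 were lower, led by Postn (-6.04 ± 0.13), Vcam1 (-4.53 ± 0.27) and fibronectin, Fn1 (-4.20 ± 0.19). Tenascin C, Tnc, a ligand of Itga9 and Itga8, was the 1 ligand that was higher (0.99 ± 0.21; SE, limma, adjusted p = 0.00553). Of 21 genes of the complex that ties integrins to actin, 13 were lower and 0 higher, among them Tns3 (-1.91), Tns1 (-1.90) and vinculin, Vcl (-1.61). Itgav, the single letter-named integrin subunit tested, fell by 1.36 on the log2 scale (limma, adjusted p = 0.000476).

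The second comparison sets the least committed progenitors of the embryo, Cited1+ cells at E16.5, against Six2+ cells at P2, near the end of nephron formation. Stage, reporter and sorted population differ together here and cannot be told apart. Of 28 genes tested, 7 were higher in Cited1+ cells, where the background was 16.3% of 11876 genes tested, and 13 were lower, where the background was 12.7%. A difference of at least 1 on the log2 scale was found for 3 of the higher genes (background 3.88%) and 8 of the lower (background 4.31%). Among the lower genes Lama2, Lamc3 and Itgb8 averaged under 1 RPKM in Cited1+ cells and passed the filter through the P2 libraries alone, so the filter fixed their direction. The median difference over the 28 genes was -0.36, against 0.07 over all genes tested. The background rests on single libraries: it was 6.66% higher and 7.36% lower without Cited1+ replicate 1, 25.2% and 18.0% without Cited1+ replicate 2, and 8.8% and 9.1% without Cited1+ replicate 3. Without P2 replicate 1 it was 7.89% higher and 7.09% lower, and without P2 replicate 2 it was 7.36% and 6.64%. Called genes of the whole table split 56.1% higher, or 46.5% higher with every library scaled to the same total, under which the counts of these genes were again 7 and 13.

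Markers of other states moved here as well, beside backgrounds of 16.3% higher and 12.7% lower over all genes tested. Of 9 nephron progenitor markers, 7 were higher and 1 lower in Cited1+ cells, with sums of 960 to 1055 RPKM against 466 to 469 at P2. Of 8 early nephron markers, genes of progenitors that have begun to form a nephron, 7 were lower in Cited1+ cells, led by Wnt4 (-4.47) and Lhx1 (-4.13). Their sum was 109 to 117 RPKM in Cited1+ and 1005 to 1040 in P2 Six2+ libraries. All 8 stromal markers were higher in Cited1+ cells, at a sum of 144 to 160 RPKM against 47.1 to 57.8, and 5 of 8 ureteric markers tested were higher, at 87.1 to 114 against 40.5 to 42.1. Markers of podocytes (4 of 6) and leukocytes (5 of 6) were lower, at 9.03 to 16.7 against 41.8 to 51.3 RPKM and 7.55 to 15.8 against 24.5 to 27.2. Of the markers tested, 3 of 5 mural markers were lower, at sums of 21.3 to 24.9 against 33.2 to 38.0 RPKM, and 1 of 5 endothelial markers was lower, at 8.87 to 22.0 against 25.4 to 31.2. Cldn5 alone held 22.3 and 18.1 RPKM of the P2 endothelial sums, against 1.94 to 2.61 in Cited1+ libraries. Apart from Cldn5, only Plvap averaged lower in Cited1+ cells. Pecam1, Kdr, Tek, Tie1, Emcn and Esam averaged higher there, with overlapping groups, so the sum does not describe the list. Cdh5 and Eng were higher in Cited1+ cells without overlap. Cdh5 was at 0.980 to 2.61 RPKM in Cited1+ libraries against 0.969 and 0.469 at P2, and Eng at 1.18 to 2.17 against 0.765 and 0.287. Proximal tubule markers were higher for 3 of 4, at 14.6 to 16.4 against 5.48 to 9.97 RPKM. No marker of these lists was at 0 in any of these 5 libraries. Among the called markers, Meox2 and Dcn averaged under 1 RPKM at P2, as did Lef1 in Cited1+ cells. They passed the filter through the other group alone, so the filter fixed their direction. Their part in the differences of the 38 genes was not tested.

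The laminin alpha chains moved in opposite directions. Lama4 was at 9.99, 7.599 and 9.599 RPKM in Cited1+ cells and at 137 and 136 in P2 Six2+ cells. The P2 libraries were more than 10 times above every Cited1+ library, and the difference of -3.78 ± 0.13 (SE; limma, adjusted p = 7.78e-06) was the widest of the 28 genes. Lama5 was at 38.4, 24.8 and 33.9 RPKM in Cited1+ cells and at 10.2 and 8.84 in P2 cells. All Cited1+ libraries were above both P2 libraries, by 1.64 ± 0.18 (SE; limma, adjusted p = 0.000895). Lama2 was low in both, at 1.17, 0.650 and 0.888 RPKM against 3.27 and 3.02, and fell by 1.13 on the log2 scale (limma, adjusted p = 0.00399). Lama2 passed the filter through the P2 libraries alone, so the filter fixed its direction. Lama1 was at 10.7, 9.73 and 12.6 RPKM against 10.6 and 9.11, with overlapping groups. Its difference of 0.14 had a 95% interval from -0.18 to 0.47.

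Within each library, the share of each alpha chain in the summed alpha RPKM does not depend on scaling between libraries. Lama4 made up 60.2% ± 6.91 (SD, n = 3) of the sum in Six2+, 64.7% ± 4.25 (SD, n = 3) in Six2-, 17.0% ± 0.608 (SD, n = 3) in Cited1+ and 84.9% and 86.6% in the P2 Six2+ libraries. Lama5 made up 26.0% ± 6.53, 6.504% ± 0.801 and 60.2% ± 2.97 in the E16.5 groups in the same order, and 6.34% and 5.62% at P2. Lama4 was thus the leading alpha chain by RPKM in all groups except Cited1+, where Lama5 led in every library. The ratio of Lama4 to Lama5 was 1.59 to 3.24 in Six2+, 8.88 to 11.5 in Six2-, 0.260 to 0.306 in Cited1+ and 13.4 to 15.4 in P2 libraries. Lama1 held 10.3% to 15.2% of the sum in the Six2+ and Six2- groups, 17.7% to 22.6% in Cited1+ libraries and 5.79% to 6.56% at P2. The E16.5 Six2+ and Cited1+ groups both hold embryonic progenitors, but they sit in separate tables and their difference was not tested. Summed ureteric markers were at 26.1 to 29.5 RPKM in Six2+ and 87.1 to 114 in Cited1+ libraries, and proximal tubule markers at 1.71 to 1.88 and 14.6 to 16.4. Their part in these shares was not tested.

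**Figure D4:**
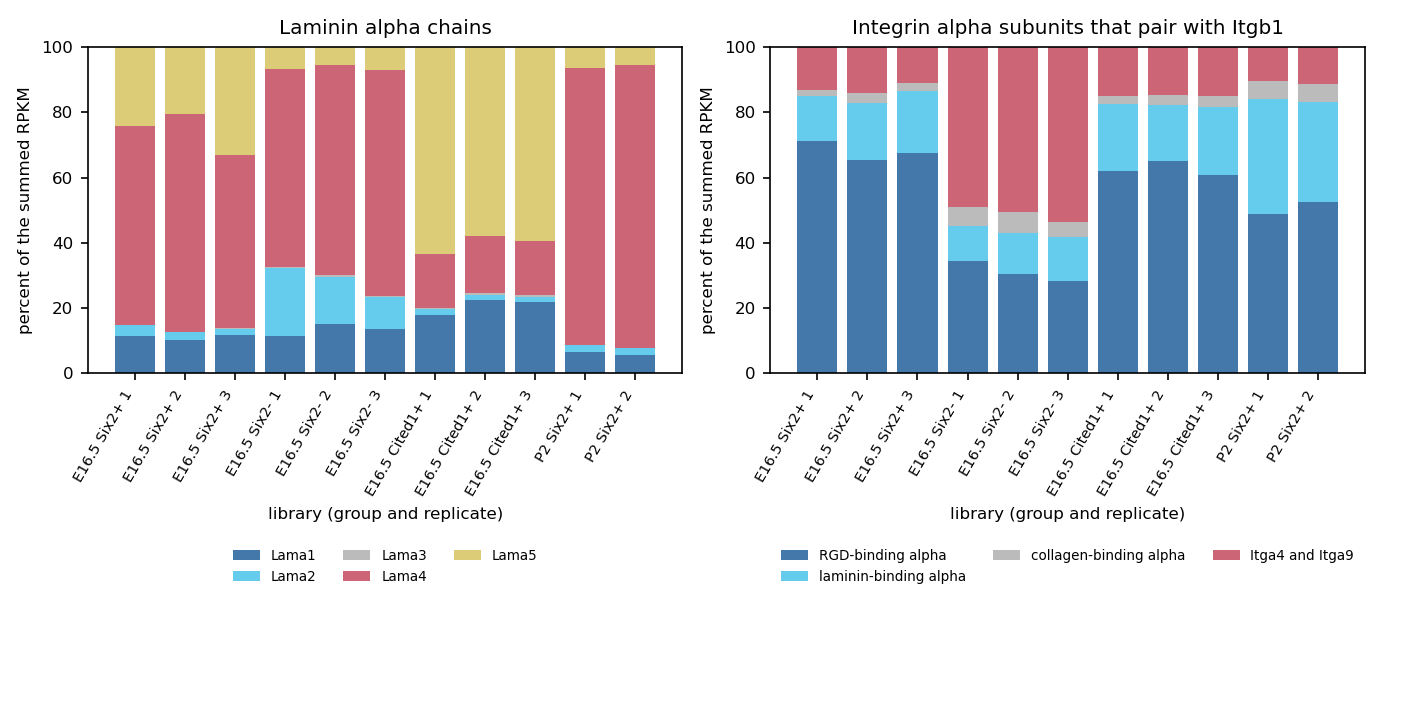
Share of each laminin alpha chain in the summed alpha RPKM (left) and of each class of integrin alpha subunit in the summed RPKM of the 11 subunits reported here that pair with Itgb1 (right, without Itgav), in percent, 1 bar per library. Lama5 takes 57.8% to 63.5% of the left bars in Cited1+ libraries, and Itga4 with Itga9 take the largest part of the right bars in Six2- libraries only.

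The shared laminin chains were lower in Cited1+ cells than at P2. Lamb1 was at 68.4, 56.2 and 66.7 RPKM in Cited1+ and at 199 and 181 in P2 cells. Lamc1 was at 77.8, 74.9 and 78.3 RPKM against 260 and 244, the highest levels of any of the 38 genes in any library. Both P2 libraries stood well above every Cited1+ library for each gene, with differences of -1.56 ± 0.12 for Lamb1 and -1.70 ± 0.10 for Lamc1 (SE; limma, adjusted p = 0.000177 and 4.92e-05). Within a library the RPKM ratio of Lamc1 to Lamb1 ranged only from 0.808 to 1.35 over all 11 libraries, with the lowest ratio in a Six2- and the highest in a P2 library. Lamc1 lies on chromosome 1 at 153218922 to 153332786.

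Lamc3 was at 0.683, 0.532 and 0.641 RPKM in Cited1+ cells and at 3.54 and 5.39 at P2, with no overlap, and fell by 1.74 on the log2 scale (limma, adjusted p = 0.000875). Lamc3 passed the filter through the P2 libraries alone, so the filter fixed its direction. Lamb2 went up where Lamb1 went down. It averaged 22.2 ± 3.20 RPKM (SD, n = 3) against 14.3 and 13.7, and rose by 0.62 ± 0.14 (SE; limma, adjusted p = 0.0149). Lamb2 made up 25.8% ± 1.39 (SD, n = 3) of the summed beta chains in Cited1+ and 6.69% and 7.06% in P2 libraries.

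Both nidogens were lower in Cited1+ cells. Nid1 was at 13.8, 11.96 and 10.2 RPKM against 33.5 and 34.2, and Nid2 at 16.2, 13.3 and 12.9 against 55.5 and 55.0. Neither gene's groups overlapped, with differences of -1.43 ± 0.13 for Nid1 and -1.90 ± 0.12 for Nid2 (SE; limma, adjusted p = 0.000425 and 7.46e-05).

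Nephronectin was not called between these groups, while its receptor subunit Itga8 was higher in Cited1+ cells. Npnt was at 15.9, 17.1 and 16.4 RPKM in Cited1+ and at 18.5 and 15.9 in P2 cells, with overlapping values and a difference of -0.05 (95% interval -0.31 to 0.20). Itga8 was at 76.1, 76.7 and 71.7 RPKM in Cited1+ and at 44.1 and 42.6 in P2 cells. All Cited1+ libraries were above both P2 libraries, by 0.77 ± 0.09 (SE; limma, adjusted p = 0.00139). The ratio of Itga8 to Npnt within a library was 4.38 to 4.79 in Cited1+ and 2.39 to 2.68 in P2 cells, beside 5.36 to 8.07 in Six2+ and 2.09 to 3.28 in Six2- cells at E16.5.

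Frem1 and Frem2 went in opposite directions. Frem1 was at 14.0, 9.08 and 9.94 RPKM in Cited1+ and at 2.47 and 3.07 in P2 cells, and rose by 1.65 ± 0.19 (SE; limma, adjusted p = 0.00104). Frem2 was at 18.9, 13.3 and 18.3 RPKM against 35.8 and 41.8, and fell by 1.17 on the log2 scale (limma, adjusted p = 0.00256). For each gene the groups were fully apart. Fras1, at 11.5 ± 1.49 RPKM (SD, n = 3) against 9.36 and 8.88, was not called (0.30; limma, adjusted p = 0.132). It was called without Cited1+ replicate 2 (adjusted p = 0.0215). Grip1 was not called either (-0.27; adjusted p = 0.192).

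Among the integrin alpha subunits, 3 of 8 tested were higher in Cited1+ cells (background 16.3%), 2 were lower (background 12.7%) and 3 were not called. Itga9 joined Itga8 among the higher ones, at 19.96, 18.0 and 19.6 RPKM against 10.2 and 9.88, with no overlap and a difference of 0.87 ± 0.10 (SE; limma, adjusted p = 0.00122). Itga5, at 10.7 ± 1.21 RPKM (SD, n = 3) against 7.27 and 7.65, rose by 0.46 (limma, adjusted p = 0.0349). Itga3 fell by 0.92 (limma, adjusted p = 0.00359), from 20.3 and 16.3 RPKM at P2 to 9.16 ± 0.989 (SD, n = 3) in Cited1+ cells. Itga1, at 2.04, 2.71 and 2.30 RPKM against 3.87 and 3.85, fell by 0.54 (limma, adjusted p = 0.0336). Itga4 was at 1.06, 1.33 and 0.971 RPKM against 0.847 and 0.834, and was not called (adjusted p = 0.399), nor were Itga6 (0.23) and Itga11 (-0.24).

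Itgb5 was the beta subunit that rose in Cited1+ cells. It was at 29.0, 26.6 and 30.0 RPKM against 13.2 and 13.0, with groups far apart, and the difference was 1.06 ± 0.10 (SE; limma, adjusted p = 0.000467). Its partner Itgav, outside the 38 genes, rose by 0.54 ± 0.10 (SE; limma, adjusted p = 0.00959), to 25.0 ± 0.866 RPKM (SD, n = 3) in Cited1+ cells. Itgb1 was at 106, 121 and 108 RPKM against 179 and 170 and fell by 0.64 (limma, adjusted p = 0.00568). Itgb8 fell by 0.89 (adjusted p = 0.00860), and Itgb4 was not called (-0.45; adjusted p = 0.0675). Itgb8 passed the filter through the P2 libraries alone, so the filter fixed its direction. Some calls rested on single libraries. Those of Itga1 and Itga5 were lost without any 1 library other than Cited1+ replicate 2, that of Lamb2 without Cited1+ replicate 1 or either P2 library, and that of Itgb1 without P2 replicate 1 (adjusted p of 0.0555 to 0.146 by limma, with a lone P2 library assumed to vary like the other group).

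The remaining 10 genes, Lama3, Lamb3, Itga2, Itga2b, Itga7, Itga10, Itgb2, Itgb3, Itgb6 and Itgb7, had means below the filter here. Itgb6, an epithelial partner of Itgav, stood out at 0.948 to 1.23 RPKM in Cited1+ and 0.142 to 0.374 in P2 libraries, and with no filter its difference of 0.74 was called (limma, adjusted p = 0.0314). The level of Itga10 is uncertain, since 33.5% of its exonic bases are shared with the gene model Gm42957 on the same strand.

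Taken as a set of receptors, the 11 alpha subunits that pair with Itgb1 were led by Itga8 in all groups but Six2- cells. Itga8 made up 49.6% ± 4.72 (SD, n = 3) of their summed RPKM in Six2+, 15.9% ± 2.89 (SD, n = 3) in Six2- and 54.8% ± 2.91 (SD, n = 3) in Cited1+ cells, and 41.9% and 44.5% in P2 libraries. In Six2- cells Itga9 led with 48.8% ± 3.17 (SD, n = 3). The laminin-binding subunits Itga3, Itga6 and Itga7 together made up 16.7% ± 2.70 (SD, n = 3) in Six2+, 12.2% ± 1.38 (SD, n = 3) in Six2-, 19.5% ± 1.96 (SD, n = 3) in Cited1+ and 35.1% and 30.6% in P2 libraries. These shares are descriptions of RNA levels and were not tested.

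Of 19 other basement membrane genes tested against P2, 10 were lower (background 12.7%) and 2 higher (background 16.3%) in Cited1+ cells. Dystroglycan, Dag1, a laminin receptor outside the integrins, was at 53.5 ± 4.43 RPKM (SD, n = 3) against a P2 mean of 153 and fell by 1.5 (limma, adjusted p = 0.000132). Frem3, a relative of Frem1 and Frem2, fell by 1.88 (limma, adjusted p = 0.00101), and the hemicentin Hmcn1 rose by 1.78 (limma, adjusted p = 0.000178). Of 13 other integrin ligands, 4 were higher and 4 lower, with Egfl6 (-1.70), an Itga8 ligand related to nephronectin, and Ctgf (-1.55) among the lower and Postn (1.12) among the higher. Of 20 adhesion complex genes, 2 were higher and 8 lower, with Tns3 (-1.19), Fyn (-1.03) and Zyx (-0.82) the widest. These counts depend on single libraries: without Cited1+ replicate 1, Cited1+ replicate 3 or either P2 library, 6 to 8 basement membrane genes and 3 to 4 adhesion genes were lower.

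The authors' deposited tables of selected genes hold 11 entries for these 38 genes. In the authors' deposited table for Cited1+ cells, Frem1 (ratio 4.44) and Lama5 (3.16) are listed as higher, and Lama4 (0.0661), Nid2 (0.255), Lamc1 (0.296) and Lamb1 (0.320) as lower. Those ratios compare the Cited1+ mean with the first P2 library alone. In the authors' deposited table for Six2+ cells, Itga1 (0.0227), Nid1 (0.0452), Itga9 (0.102), Lama1 (0.260) and Lama4 (0.286) are listed as lower and none as higher.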

How the data were processed

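Per the labels' protocols, a Qiagen RNeasy micro kit was used for the RNA and a stranded mRNA-Seq kit from Kapa for the libraries. Software named in the submitters' processing notes is bcl2fastq 2.17, TopHat2 and Partek, with the build mm10. The aligner's settings and the use of strand in counting are not given in the sources used here. The authors named the deposited values TPM, but their sums differ between libraries (coefficient of variation 8.95%) and even out to 2.47% when weighted by GENCODE M21 transcript length, available for 96.1% of genes, so they were read as RPKM. The fold ratios in the authors' deposited lists carry 0.01 added to each mean. A total of 27 rows with a date for a symbol were left out.

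Each comparison was fitted within its table, on log2(RPKM + 1), by limma 3.58.1 under R 4.3.3 with a trend of variance on mean. Genes averaging at least 1 RPKM in the fitted libraries were tested, and p-values were adjusted by the Benjamini-Hochberg method over all genes tested at a threshold of 0.05. The design had assumed TPM, and its test also fits RPKM. The fit was tested on simulated data. Members and lists were chosen with earlier results of these data known. All members enter the counts, and 1 is not reported here by name. Values in every library are given for Itga8, Npnt, Lama4 and Lamc1, for members called with a difference of at least 1 on the log2 scale in either comparison, and for Itgb1, which was added after its values were seen. From the other lists, up to 3 passing genes with the widest difference are named, and Col18a1 and Tnc were named after their values were seen.

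Same-numbered Six2+ and Six2- libraries deviated together from their group means (correlations 0.47, 0.455 and 0.404 over genes), so the replicate numbers were taken to pair them, and the fit with the replicate block is given where it changes a call. No 2 libraries of a group shared identical values above 0. Intervals and p-values rest on 2 or 3 libraries per group.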

Additional observations from a re-analysis of the deposited data

How the results depend on the processing

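Other pseudocounts (0.1 and 0.01) changed no call among the 38 genes in either comparison. In Six2+ against Six2- cells, 0 genes were higher in the main fit (background 20.5%). With no filter on low values 1 was higher (background 13.9%), and with the replicate block 1 (background 30.3%). When single libraries were left out, 0 to 2 were higher (background 13.7% to 20.1%). The number lower was 17 (background 18.1%), and 13 to 19 when single libraries were left out (background 14.2% to 18.7%). It was 14 with a filter at a mean of 5 (background 14.1%) and 15 with the same total in every library (background 17.7%). It was 19 with median-ratio scaling (background 19.7%), 16 without the mean-variance trend (background 18.0%) and 20 with the replicate block (background 22.2%). With no filter, which also tested more genes, it was 23 (background 16.7%). In Cited1+ against P2 Six2+ cells the 7 higher and 13 lower became 5 to 8 and 11 to 13 when single libraries were left out, and 5 to 7 and 9 to 14 under the other settings. Differences turned sign for 2 uncalled genes. Leaving out single libraries, Lama5 in the first comparison ranged from -0.013 without Six2+ replicate 3 (adjusted p = 0.962 by limma) to 0.44. Npnt in the second ranged from -0.16 to 0.049 without P2 Six2+ replicate 1 (adjusted p = 0.824 by limma). The cause was not tested.

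Same-numbered Cited1+ and P2 libraries did not deviate together (correlations 0.0415 and -0.0282), so they share a number and not a pairing. With the replicate block there, 5 genes were higher (background 7.54%) and 11 lower (background 7.31%). Lamb2, Itga1, Itga5 and Itgb1 then missed the threshold (adjusted p of 0.0600, 0.134, 0.164 and 0.0618 by limma). In the Six2 comparison the block added 4 calls, those of Itga8, Lamb2 and Itgb5 among them, and lost none; Lamb2 was also called without Six2+ replicate 3, and Itgb5 without Six2+ or Six2- replicate 3. With 2 or 3 libraries per group, small differences such as those of Itga3, Itga6 and Lamc1 cannot be placed firmly on either side of the threshold, and genes under 1 RPKM were not tested in the main fit.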
